A study of Mus musculus with 36 samples.

Results

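A list of 34 neuropeptide and peptide-hormone precursor genes was followed through hypothalamus, cortex and brainstem of mice that lack hypocretin (orexin) signalling. The list was made by gene symbol, through the GENCODE M21 annotation, and all 34 had a row among the 38924 genes counted. It leaves out hypocretin itself, the hypophysiotropic hormones and the main feeding peptides, and holds galanin, neurotensin, neurokinin B, PACAP, cholecystokinin, the calcitonin gene-related peptides (CGRP) and others. Polyadenylated RNA from C57BL/6 mice was sequenced: 36 libraries in all, with 3 replicates of every combination of genotype (4) and tissue (3). The genotypes were Hcrt/Orexin-ataxin-3 transgenic mice (tg/+), wild types of that line (+/+), Hcrt/Orexin knockout mice, and wild types of the knockout line. In the transgenic line the hypocretin promoter drives a toxic ataxin-3 fragment in hypocretin neurons, which are lost, together with whatever else these cells make. In the knockout the peptide gene is disrupted and the cells remain. Age was not given in the labels, no group received a treatment, and each model has its own wild type, so the models share no control library.

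Neuropeptides are made as longer precursors, cut by prohormone convertases in the secretory pathway, often amidated by PAM, stored in dense-core granules and released to act mostly on G-protein-coupled receptors. Many of these genes are transcribed in small groups of neurons, so that the level in a whole tissue reflects both how many such cells were dissected and how much RNA each holds. In bulk tissue, fewer cells of a type and less RNA per cell cannot be told apart. Hypocretin neurons lie in the lateral hypothalamus among galanin, neurotensin and other peptidergic cells, and project to cortex and to arousal nuclei of the brainstem.

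Promoter sequence was at hand for 26 of the 34 genes, as 27 RefSeq promoters of GRCm38.p6. Among these, 6 genes had some of the clearest tissue patterns described below, 2 for each tissue: Gal and Npvf for hypothalamus, Cck and Cort for cortex, Uts2b and Calca for brainstem. The 150 bases before their RefSeq start are shown from 5′ to 3′ on the minus strand, on which all 6 are transcribed. Capitals mark matches on either strand to any of 3 short motifs. The core-promoter element is searched as TATAAA. The core of the cyclic AMP response element is searched as TGACG, with CGTCA on the other strand. The E-box is searched as CACGTG, which reads the same on both strands. The windows are chr19:3414545-3414694 for Gal, chr6:50654446-50654595 for Npvf, chr9:121495695-121495844 for Cck, chr4:149126764-149126913 for Cort, chr16:27370240-27370389 for Uts2b and chr7:114636358-114636507 for Calca.
Gal: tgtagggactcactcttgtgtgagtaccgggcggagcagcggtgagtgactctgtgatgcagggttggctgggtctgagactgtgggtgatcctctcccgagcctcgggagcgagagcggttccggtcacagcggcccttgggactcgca
Npvf: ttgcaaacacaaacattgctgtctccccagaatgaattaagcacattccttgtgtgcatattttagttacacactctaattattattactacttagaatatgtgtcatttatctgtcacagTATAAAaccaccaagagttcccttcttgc
Cck: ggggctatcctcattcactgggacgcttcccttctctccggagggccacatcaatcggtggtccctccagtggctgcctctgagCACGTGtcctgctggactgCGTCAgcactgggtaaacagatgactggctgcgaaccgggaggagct
Cort: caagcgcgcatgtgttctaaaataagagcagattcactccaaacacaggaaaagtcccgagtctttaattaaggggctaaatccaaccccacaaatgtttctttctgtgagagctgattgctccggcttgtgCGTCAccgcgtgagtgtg
Uts2b: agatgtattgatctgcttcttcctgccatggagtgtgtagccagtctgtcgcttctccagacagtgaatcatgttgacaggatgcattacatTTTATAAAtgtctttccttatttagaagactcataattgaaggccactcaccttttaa
Calca: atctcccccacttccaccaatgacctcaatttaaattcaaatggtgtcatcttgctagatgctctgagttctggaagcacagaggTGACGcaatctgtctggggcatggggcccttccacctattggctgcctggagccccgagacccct
The Npvf window holds TATAAA with its first base 29 bases before the start, and in Uts2b the letters overlap on both strands, 56 and 58 bases before the start. The Cck window holds CACGTG 66 bases and CGTCA 47 bases before the start, Cort holds CGTCA 18 bases before it, and Calca holds TGACG 65 bases before it. None of these letters occur in the printed window of Gal. Over the 250 bases before the start and on both strands, TATAAA occurred in 9 of the 27 promoters (33.3%) and in 12.4% of 32851 mouse promoters of the same length. TGACG occurred in 8 (29.6%, against 17.8%) and CACGTG in 3 (11.1%, against 6.02%). The 9 genes with TATAAA were Nppc, Gcg, Nppa, Npvf, Prok2, Nps, Rln3, Uts2b and Adcyap1. A match is a run of letters and not a shown binding site.

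Gene counts ran from 21915540 to 47057537 per library, so that 3 counts, the most that a count of 0 allows, correspond to 0.0638 to 0.137 CPM (gene counts scaled to a common library size). Levels are CPM scaled by TMM factors over all 36 libraries. Hcrt itself separated the genotypes in hypothalamus: 2.07 to 2.46 CPM in the 3 transgenic libraries against 101 to 196 in their wild types, and 0.996 to 1.14 in the knockout against 51.4 to 81.2 in its wild types. Marker genes matched the tissue labels. The 6 hypothalamic markers, Hcrt among them, summed to 762 to 1330 CPM in hypothalamus and to at most 3.66 in other tissues, and 5 brainstem markers summed to 447 to 645 CPM in brainstem and at most 2.37 elsewhere. Slc17a7, the vesicular glutamate transporter of cortical neurons, was at 1230 to 1370 CPM in cortex and at 133 to 193 in brainstem, so it is not a marker of cortex alone. Some libraries stood apart. Pituitary markers summed to 26100 and 13900 CPM in wild-type replicates 1 and 3 of the ataxin-3 line in hypothalamus and to 19100 CPM in knockout-line wild-type replicate 3, and nasal markers to 1370 CPM in transgenic replicate 1, where meningeal markers reached 517 CPM. In hypothalamus of the knockout-line wild types, replicates 1 and 3 held Slc17a7 at 118 and 87.7 CPM against 0.565 to 12.2 in the other 10 libraries. Other cortical markers did not separate these 2 libraries to the same degree: Neurod6 was 0.611 and 1.81 CPM there and 0.706 to 1.85 in the others. Tbr1 was 7.33 and 7.16 CPM against 0.924 to 4.9, and Emx1 was 0.941 and 1.41 against 0 to 0.501. Cerebellar markers varied within every brainstem group, from 35.1 to 429 CPM over the 12 libraries. In cortex they summed to 50.8 CPM in transgenic replicate 3 and 26.9 in ataxin-3-line wild-type replicate 2. The other cortex libraries were at 0.307 to 0.996 CPM.

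In the wild types, the 34 genes summed to 502 ± 31 CPM in hypothalamus, 501 ± 26 in cortex and 328 ± 19 in brainstem (mean ± SD, n = 6 libraries of both lines). Most of this came from few genes. Vgf, a granin-like secretory protein that is widespread in neurons, made up 41.8%, 39.0% and 39.6% of the sum in hypothalamus, cortex and brainstem. Cck made up 42.6% of it in cortex, Adcyap1 20.9% in hypothalamus and Apln 20.7% in brainstem. At a mean of 1 CPM or more, 19 of the 34 genes were detected in hypothalamus, 15 in cortex and 21 in brainstem, and 26 in at least 1 tissue. Per kilobase of exon, which allows levels of different genes to be compared, the order in hypothalamus was Vgf (70.6 CPM per kb), Gal (42), Adcyap1 (27.7) and Nts (25.5). In cortex Cck (164 CPM per kb) lay above Vgf (65.6), and in brainstem Vgf (43.6) lay above Apln (21.6).

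**Figure D1:**
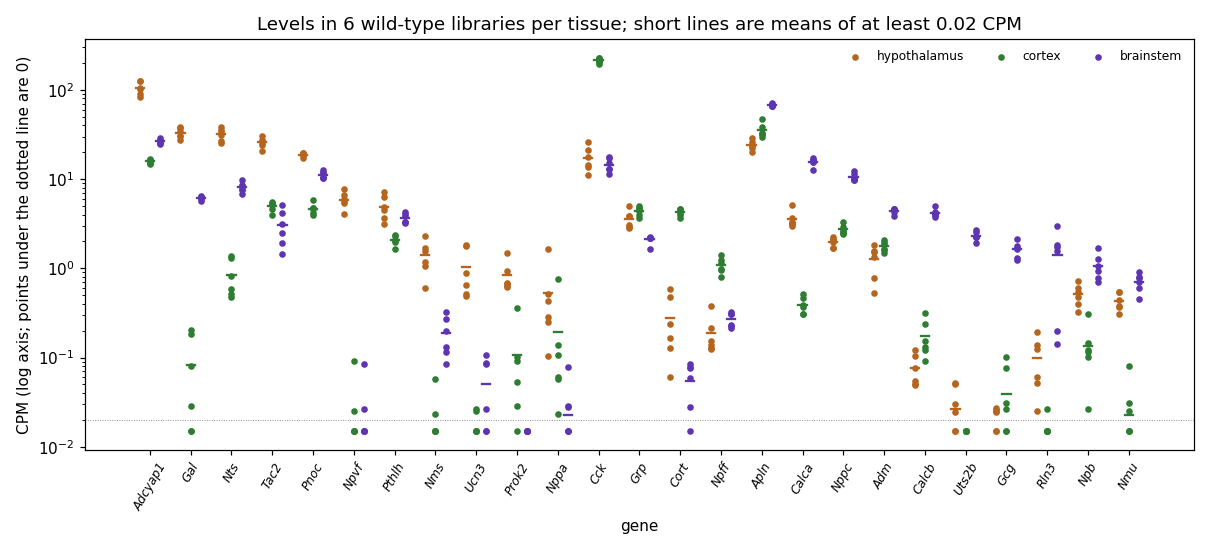
CPM (log axis) of 25 precursor genes in the 6 wild-type libraries of each tissue, coloured by tissue, with short lines at means of at least 0.02 CPM; points under the dotted line are libraries at 0. The genes are ordered by the tissue where they were highest: hypothalamus from Adcyap1 to Nppa, cortex from Cck to Npff and brainstem from Apln to Nmu.

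Of the 34 genes, 29 passed the filter on low counts over the 18 wild-type libraries. The difference between tissues was tested with edgeR's quasi-likelihood test, with Benjamini-Hochberg adjustment over 17440 genes and a threshold of 0.05. Between hypothalamus and cortex 25 of the 29 passed (15 higher and 10 lower in hypothalamus), where 78.7% of all genes did (40.4% higher and 38.3% lower). Between hypothalamus and brainstem 27 passed (15 higher and 12 lower in hypothalamus), where 71.5% of all genes did (38% higher and 33.5% lower), and between cortex and brainstem 24 (8 higher and 16 lower in cortex), where 80.7% of all genes did (39.4% higher and 41.3% lower). The shares called were high for these genes and for all genes alike. The median log2 fold change of the 29 genes was 1.65 for hypothalamus over cortex, 0.43 for hypothalamus over brainstem and -0.95 for cortex over brainstem, where the medians over all genes were 0.03, 0.03 and -0.03. With 4 genes that had a wild-type group at 0 placed at their pooled ratio or bound, the first of these medians was 1.25. Past the threshold against both other tissues, 11 genes were highest in hypothalamus (19.8% of all genes), 4 in cortex (29%) and 10 in brainstem (22.4%), and 4 were highest in no single tissue. In cortex 10 genes were lowest (28.8% of all genes), in hypothalamus 6 (14.8%) and in brainstem 6 (22.2%). Of the 6 lowest in hypothalamus, Calcb and Adm were not past the threshold against cortex without the libraries of pituitary, nasal or high-Slc17a7 signal (-0.81, edgeR adjusted p = 0.18, and -0.31, edgeR adjusted p = 0.10), nor was Calcb without ataxin-3-line wild type 1 of cortex (-0.86, edgeR adjusted p = 0.071). Calcb also missed the threshold in ataxin-3-line wild types alone (-0.92, edgeR adjusted p = 0.13). Adm missed it in knockout-line wild types alone (-0.21, edgeR adjusted p = 0.31).

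**Figure D2:**
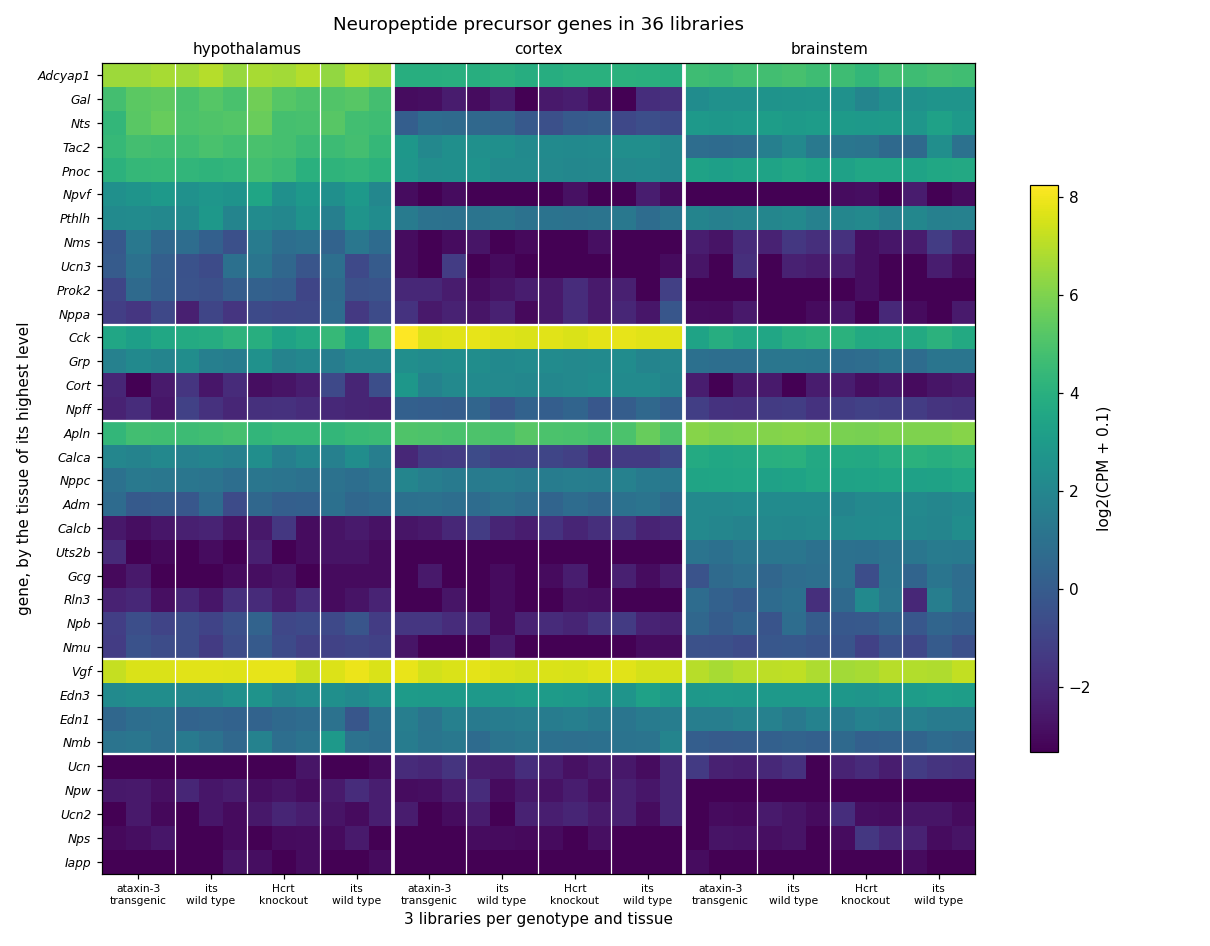
Level of all 34 genes, as log2(CPM + 0.1), in the 36 libraries, with 3 libraries per genotype and tissue in columns; the rows are grouped by the tissue where a gene was highest, then genes with no single highest tissue, then 5 genes under 0.2 CPM in all tissues. Blocks of colour follow the tissue, and no genotype block within a tissue stands apart to the same degree.

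The 11 genes highest in hypothalamus were Gal, Nts, Tac2, Adcyap1, Pnoc, Npvf, Pthlh, Nms, Ucn3, Prok2 and Nppa. Galanin (Gal), a peptide of sleep-active preoptic neurons among others, was at 27.6, 32.7 and 37.9 CPM (lowest, median and highest of 6) in hypothalamus, at 0, 0.0543 and 0.204 in cortex, and at 5.75, 6.33 and 6.45 in brainstem. The 3 tissues did not overlap, and the log2 fold change was 8.81 over cortex (SE 0.21, adjusted p = 3e-16) and 2.41 over brainstem (SE 0.12, adjusted p = 5.8e-12). Neurotensin (Nts) had the same order, with 31.8 ± 4.9, 0.849 ± 0.40 and 8.12 ± 1.0 CPM (mean ± SD, n = 6) in hypothalamus, cortex and brainstem. PACAP (Adcyap1), which acts on Adcyap1r1, was at 105 ± 18, 15.7 ± 0.78 and 26.6 ± 1.6 CPM, log2 fold changes of 2.74 and 1.98 for hypothalamus over the other two. Neurokinin B (Tac2), a peptide of arcuate neurons that control gonadotropin release, was at 25.9 ± 3.3 CPM in hypothalamus, with log2 fold changes of 2.39 over cortex and 3.11 over brainstem. Nociceptin (Pnoc) was less restricted, at 18.8, 4.67 and 11.2 CPM.

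Npvf, the precursor of the RFamide-related peptides of the dorsomedial hypothalamus, was nearly confined to hypothalamus in these libraries. It had 1270 counts over the 6 hypothalamus libraries (4.06 to 7.65 CPM), 4 counts over the 6 of cortex and 4 over the 6 of brainstem. In each of these tissues 3 of the 4 counts came from a single library, knockout-line wild type 2 in cortex and 1 in brainstem, so no ratio is given. Neuromedin S (Nms), of the suprachiasmatic nucleus, had 304 counts in hypothalamus, 3 in cortex and 34 in brainstem. Its ratio of hypothalamus over cortex was 101 (95% counting interval 34.3 to 494). Urocortin 3 (Ucn3), a ligand of the Crhr2 receptor, had 228, 2 and 9 counts, a ratio over cortex of 114 (31.2 to 946). Prokineticin 2 (Prok2), an output signal of the suprachiasmatic clock, had 184 counts in hypothalamus and 24 in cortex and was at 0 in all 6 brainstem libraries, so that it was at least 52.9-fold higher in hypothalamus than in brainstem, taking 3 counts over the group as the floor. These intervals and floors cover counting error only. Parathyroid hormone-like hormone (Pthlh) was at 4.93, 2.08 and 3.67 CPM, and its excess over brainstem (log2 fold change 0.43, adjusted p = 0.033) was not past the threshold after leaving out any of 7 single libraries, with adjusted p of 0.053 to 0.13. Those were ataxin-3-line wild types 1 and 3 and knockout-line wild types 2 and 3 in brainstem, and ataxin-3-line wild type 2 and knockout-line wild types 2 and 3 in hypothalamus. The Pthlh excess also missed the threshold with voom (voom adjusted p = 0.16) and without the filter on low counts (edgeR adjusted p = 0.052). In ataxin-3-line and knockout-line wild types alone the edgeR adjusted p was 0.11 and 0.13. Atrial natriuretic peptide (Nppa) was low and uneven, at 0.103 to 1.63 CPM in hypothalamus, with 1.63 in knockout-line wild-type replicate 1, a library of high Slc17a7. Its excess over cortex (log2 fold change 1.65, adjusted p = 0.030) was lost without that library (1.14, adjusted p = 0.082), without ataxin-3-line wild type 2 of hypothalamus (1.38, adjusted p = 0.10) and without any of 3 cortex libraries (ataxin-3-line wild types 1 and 3 and knockout-line wild type 1, adjusted p of 0.053 to 0.075). It was also lost in knockout-line wild types alone (edgeR adjusted p = 0.25) and without the filter on low counts (edgeR adjusted p = 0.06).

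Cholecystokinin (Cck), made by most cortical pyramidal cells and a class of interneurons, was highest in cortex at 196, 211 and 230 CPM (lowest, median and highest of 6), against 11.1, 16 and 26.3 in hypothalamus and 11.5, 14.1 and 17.5 in brainstem. Cortex did not overlap with the other tissues, and the log2 fold change was -3.62 for hypothalamus over cortex (SE 0.18, adjusted p = 2.8e-10) and 3.87 for cortex over brainstem (SE 0.18, adjusted p = 1.4e-10). Cortistatin (Cort), an interneuron peptide that binds somatostatin receptors, was at 4.26 ± 0.39 CPM in cortex, 0.279 ± 0.21 in hypothalamus and 0.0548 ± 0.034 in brainstem (n = 6). Its excess in hypothalamus over brainstem (log2 fold change 2.01, adjusted p = 0.00095) fell to 0.55 (adjusted p = 0.53) without the libraries of pituitary, nasal or high-Slc17a7 signal. Neuropeptide FF (Npff) was at 1.09 CPM in cortex, 0.189 in hypothalamus and 0.269 in brainstem, log2 fold changes of 2.02 for cortex over brainstem and -2.58 for hypothalamus over cortex. Gastrin-releasing peptide (Grp) was at 4.44, 3.6 and 2.11 CPM in cortex, hypothalamus and brainstem. Its difference between cortex and hypothalamus was small (log2 fold change -0.30, adjusted p = 0.045) and was not past the threshold without any of 6 single libraries, with adjusted p of 0.07 to 0.13. Those were ataxin-3-line wild types 1 and 3 and knockout-line wild type 1 in cortex, and ataxin-3-line wild types 2 and 3 and knockout-line wild type 1 in hypothalamus. The Grp difference also missed the threshold in ataxin-3-line and knockout-line wild types alone (edgeR adjusted p of 0.061 and 0.28).

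The 10 genes highest in brainstem were Apln, Calca, Calcb, Nppc, Adm, Uts2b, Gcg, Rln3, Npb and Nmu. Calca, which encodes calcitonin and, by alternative splicing, the CGRP of parabrachial and motor neurons, was at 12.6, 16 and 17.4 CPM in brainstem (lowest, median and highest of 6), 3, 3.28 and 5.08 in hypothalamus and 0.307, 0.382 and 0.521 in cortex. The tissues did not overlap, with log2 fold changes of -2.13 for hypothalamus over brainstem (SE 0.12, adjusted p = 3.8e-12) and -5.30 for cortex over brainstem (SE 0.15, adjusted p = 1.2e-16). Gene counts do not separate calcitonin from CGRP transcripts. Its paralog Calcb, which encodes the second CGRP, was at 4.17 CPM in brainstem, 0.0763 in hypothalamus and 0.176 in cortex, 5.76 lower on the log2 scale in hypothalamus than in brainstem (log2 fold change -5.76). Reads that fit both paralogs could be lost or split, which limits the comparison of their levels. Urotensin II-related peptide (Uts2b), of motor nuclei, had 436 counts in brainstem and 6 in hypothalamus and was at 0 in all 6 cortex libraries, at least 168-fold higher in brainstem than in cortex. Proglucagon (Gcg), the source of GLP-1 in neurons of the solitary tract nucleus, had 306, 4 and 8 counts in brainstem, hypothalamus and cortex, a log2 fold change of -6.35 for hypothalamus over brainstem (SE 0.36, adjusted p = 6.6e-12).

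Relaxin-3 (Rln3), the peptide of the nucleus incertus, a small cell group of the pontine midline, was at 0.141 to 2.95 CPM in wild-type brainstem, with the largest SD relative to its mean among the brainstem-highest genes. It was at 0.141 CPM in knockout-line wild-type replicate 1 and 0.199 in ataxin-3-line wild-type replicate 3, and at 1.55 to 2.95 in the other 4. It had 252 counts in brainstem, 21 in hypothalamus and 1 in cortex, a ratio of brainstem over cortex of 292 (95% counting interval 51.9 to 11600). Its difference between hypothalamus and brainstem (log2 fold change -3.78, edgeR adjusted p = 0.00093) was not past the threshold without the libraries of pituitary, nasal or high-Slc17a7 signal (-4.49, edgeR adjusted p = 0.07). Apelin (Apln), the ligand of Aplnr, was at 68 ± 2.7, 35.3 ± 6.5 and 24.2 ± 2.9 CPM in brainstem, cortex and hypothalamus. C-type natriuretic peptide (Nppc), the ligand of Npr2, was at 10.6 CPM in brainstem, 1.96 in hypothalamus and 2.74 in cortex, a log2 fold change of -2.44 for hypothalamus over brainstem (SE 0.10, adjusted p = 5.8e-14). Adrenomedullin (Adm), a vascular peptide, was at 4.42, 1.26 and 1.78 CPM in brainstem, hypothalamus and cortex. Neuropeptide B (Npb) was at 1.07, 0.513 and 0.136 CPM, and neuromedin U (Nmu) at 0.71, 0.432 and 0.0226. The Nmu difference between hypothalamus and brainstem (log2 fold change -0.71, adjusted p = 0.025) was lost without knockout-line wild type 2 of brainstem (-0.56, adjusted p = 0.094) or ataxin-3-line wild type 2 of hypothalamus (-0.59, adjusted p = 0.067). It also missed the threshold with voom (-0.62, voom adjusted p = 0.071). In ataxin-3-line and knockout-line wild types alone the edgeR adjusted p was 0.13 and 0.072.

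The other 4 tested genes had no single highest tissue. Vgf was at 210 ± 16, 195 ± 15 and 130 ± 14 CPM in hypothalamus, cortex and brainstem, with brainstem the lowest. The endothelins Edn1 (1.35, 2.69 and 2.96 CPM) and Edn3 (4.94, 7.81 and 8.07 CPM) were lowest in hypothalamus and did not pass the threshold between cortex and brainstem (adjusted p = 0.41 and 0.67). Endothelial markers were also lowest in hypothalamus, at 72.9 to 98.1 CPM against 142 to 154 in cortex and 135 to 170 in brainstem, and their part in this order was not tested. Neuromedin B (Nmb) was at 2.83 ± 2.3 CPM in hypothalamus, 2.28 ± 0.72 in cortex and 1.26 ± 0.19 in brainstem, with 7.4 CPM in the first knockout-line wild type of hypothalamus and 1.4 to 2.54 in the other 5. Its excess in cortex over brainstem (log2 fold change 0.86, adjusted p = 0.034) was lost without any of 8 single libraries, with adjusted p of 0.052 to 0.088. Those were 5 brainstem wild types (ataxin-3 line 1, 2 and 3, knockout line 1 and 3) and 3 cortex wild types (ataxin-3 line 2 and 3, knockout line 3). That excess was also lost in knockout-line wild types alone (edgeR adjusted p = 0.24) and without the filter on low counts (edgeR adjusted p = 0.06). Nmb shares exon sequence with Sec11a, and Npff with Gm28047, each on the same strand, so both levels are uncertain, while Nmu, Nppa and Edn1 have antisense exons and the strand setting of the counting is not given in the sources used here. The other 5 of the 34 genes stayed under 0.2 CPM on average in every tissue and in no tissue comparison: Iapp, Nps, Npw, Ucn and Ucn2. Npw had 23 counts in hypothalamus, 20 in cortex and 0 in brainstem, at least 6.61-fold higher in hypothalamus than in brainstem. Urocortin (Ucn) had 1, 22 and 35 counts, and neuropeptide S (Nps) 5, 3 and 9.

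Receptors and processing genes were set beside their ligands. Of 43 receptor genes tested, 30 were higher and 9 lower in hypothalamus than in cortex (40.4% and 38.3% of all genes). Against brainstem, 29 were higher and 6 lower in hypothalamus (38% and 33.5%), and 14 higher and 26 lower in cortex (39.4% and 41.3%). In all, 23 were highest in hypothalamus, 9 in cortex and 5 in brainstem, where 19.8%, 29% and 22.4% of all genes were. Galr1, a galanin receptor, was higher in hypothalamus than in cortex by 5.65 on the log2 scale (SE 0.20, adjusted p = 3.1e-15), and Tacr3, the neurokinin B receptor, by 3.57 (SE 0.10, adjusted p = 1.3e-16). Both ligand genes were highest in hypothalamus as well. Cckbr, the main brain receptor of cholecystokinin, was highest in cortex, as Cck was, with a log2 fold change of -2.42 for hypothalamus over cortex and 2.62 for cortex over brainstem. Sstr4, a somatostatin receptor, was also highest in cortex (3.36 over brainstem). Aplnr was highest in brainstem, as Apln was (-1.70 for hypothalamus over brainstem and -2.70 for cortex over brainstem), and so was Ramp1, a subunit of the CGRP receptor (-0.26 and -0.25), as Calca and Calcb were. Adcyap1r1, Aplnr and Ramp1 are given here because of the ligands they serve and were chosen after their values were seen. Other pairs did not share the order: Calcr, the calcitonin receptor, was higher in hypothalamus than in cortex by 9.30 and than in brainstem by 4.08, while Calca was highest in brainstem. Rxfp3, the relaxin-3 receptor, was higher in hypothalamus than in brainstem by 2.58, while Rln3 was highest in brainstem. Npr2 and Npbwr1, receptors for the products of Nppc and Npb, were highest in hypothalamus and lowest in brainstem. Glp1r, Uts2r and Nmur2, for those of Gcg, Uts2b and Nmu, were highest in hypothalamus. Calcrl, the partner of Ramp1, was highest in no single tissue. The other receptor genes highest in brainstem were Ramp2, Ednra and Pth1r. These genes too were chosen after their values were seen. The receptors of PACAP differed among themselves: Adcyap1r1 was highest in hypothalamus and lowest in cortex, as Adcyap1 was (1.06 over cortex and 0.66 over brainstem), while Vipr1, which binds PACAP and VIP, was highest in cortex (5.74 over brainstem). Pairs of this kind describe tissue averages, since peptides are released at axon terminals away from the cell body.

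Against the same shares of all genes, of 14 processing and granule genes 8 were higher and 1 lower in hypothalamus than in cortex, 11 higher and 2 lower in hypothalamus than in brainstem, and 5 higher and 7 lower in cortex than in brainstem. Secretogranin II (Scg2) was higher in hypothalamus than in cortex by 2.96 and than in brainstem by 1.77 on the log2 scale. Qpct, which forms N-terminal pyroglutamate, was higher by 2.46 and 1.23, and the amidating enzyme Pam by 1.06 and 1.79. The convertase Pcsk2 had another order, 0.90 lower on the log2 scale in hypothalamus than in cortex (log2 fold change -0.9) and 1.55 higher in cortex than in brainstem.

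Each model was then compared with its own wild type within each tissue, in 1 fit of the tissue's 12 libraries. No precursor gene passed the threshold in any of the 6 comparisons with edgeR, and none did with DESeq2 or voom. Of all genes tested, edgeR called 0.00597% and 0.0119% in hypothalamus (transgenic and knockout), 0% and 0.0789% in cortex, and 0.00606% and 0.0728% in brainstem (in the knockout 0.0243% higher and 0.0485% lower), so few genes of any kind passed. At an unadjusted p under 0.05, the counts of precursor genes were 0 of 23 and 1 of 23 in hypothalamus, 0 of 17 and 3 of 17 in cortex, and 1 of 23 and 5 of 23 in brainstem. The same shares over all genes were 4.16%, 3.89%, 5.09%, 3.3%, 8.35% and 3.24%. The precision differed by tissue: the median SE of the log2 fold changes was 0.28 in both comparisons of hypothalamus, 0.15 and 0.16 in cortex, and 0.15 and 0.14 in brainstem. No precursor gene that was tested had a log2 fold change beyond 1 in either direction. Smaller changes were not detectable where the SE was large, most of all in hypothalamus and for the low genes.

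**Figure D3:**
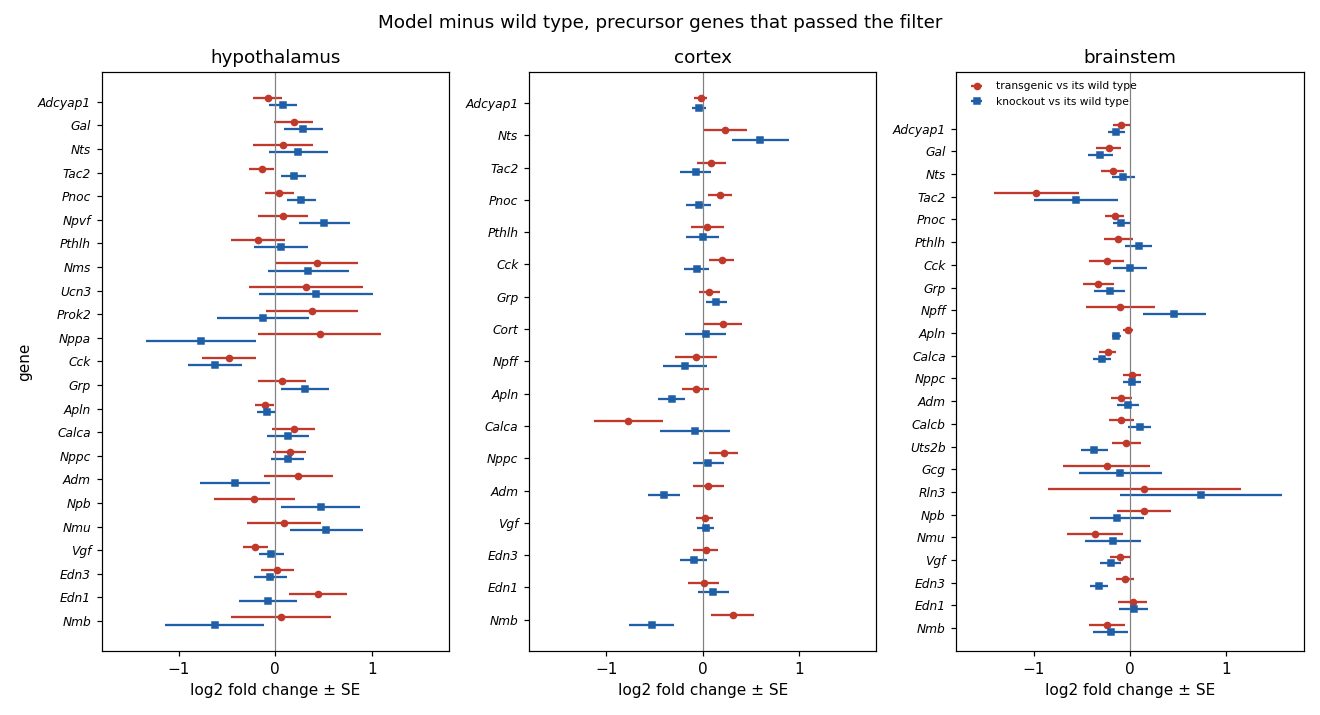
Log2 fold change of each model against its own wild type, with bars of 1 SE, for the genes that passed the filter in each tissue (23, 17 and 23); red circles are the transgenic and blue squares the knockout comparison. None passed the threshold; in brainstem most points of both models lie left of 0.

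In hypothalamus, where the hypocretin cells are lost in the transgenic line, 16 of 23 log2 fold changes of the transgenic comparison lay above 0 and 7 below, with a median of 0.08, while 47.3% of all genes lay below 0. Cck was at 11.4, 9.2 and 11.7 CPM in the transgenic libraries and 13.6, 14.3 and 17.6 in their wild types. The groups did not overlap, but the log2 fold change of -0.48 (SE 0.28, unadjusted p = 0.11, edgeR adjusted p = 1) did not pass the threshold. Vgf was at 152, 193 and 194 CPM against 211, 210 and 205 (log2 fold change -0.21), also without overlap, with the lowest value in the library of nasal and meningeal markers. Groups without overlap and lower in the model occurred for 5.02% of all genes, and higher for 4.62%. Edn1 was the other such gene, higher in the transgenic libraries (1.34, 1.7 and 1.83 CPM against 1.17, 1.28 and 1.16). Apln (-0.11), Nms (0.43) and Gal (0.19) were the remaining genes with the smallest p in each direction. The peptides of neighbouring lateral hypothalamic cells gave no separation: Gal was at 28, 39.8 and 43.5 CPM in the transgenic libraries and 30.3, 37.2 and 30.6 in wild types, and Nts at 19.9, 39.4 and 46.9 against 31.4, 33.4 and 35.5. Tac2 (21.4, 27.7 and 25.8 CPM against 25.7, 30.6 and 26.6) and Adcyap1 (94.6, 94.6 and 108 against 101, 126 and 88.7) overlapped as well.

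In the knockout hypothalamus, Cck was at 15.3, 9.98 and 12.7 CPM and in its wild types at 21.3, 11.1 and 26.3, a log2 fold change of -0.63 (SE 0.28, unadjusted p = 0.045, edgeR adjusted p = 0.81). The 2 high wild-type values are those of the libraries with high Slc17a7, and the groups overlap. Without these 2 libraries the Cck difference was 0.20. The same libraries carried other high values: Cort was at 0.483 and 0.594 CPM there, 0.128 in the remaining wild type, and 0.0336, 0.0526 and 0.0879 in the knockout. Nmb was at 7.4 CPM and Nppa at 1.63 CPM in the first of them. The interneuron list (Gad1, Pvalb, Sst and Vip) summed to 920 CPM there against 498 to 686 in the other 11 libraries. Most of that sum was Gad1. Its highest value in hypothalamus, 771 CPM (median 404), was above the whole sum of any of the other 11 libraries. The sum therefore does not show a rise of Pvalb, Sst and Vip. The log2 fold changes of Nmb (-0.63) and Nppa (-0.77) were 0.31 and 0.74 without the 2 libraries and 0.40 and 0.24 without the first alone. Npvf (0.51), Pnoc (0.27) and Tac2 (0.19) were the 3 with the smallest p among genes above 0. Npvf was at 11, 5.45 and 7.68 CPM in the knockout and 5.34, 7.65 and 4.06 in wild types. Knockout replicate 1 had the highest of 12 values for 10 of the 20 precursor genes with a median of at least 0.5 CPM, among them Gal at 52.9 and Nts at 48.9 CPM, and its hypothalamic markers summed to 1330 CPM, also the highest. The part of that in these differences was not tested.

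**Figure D4:**
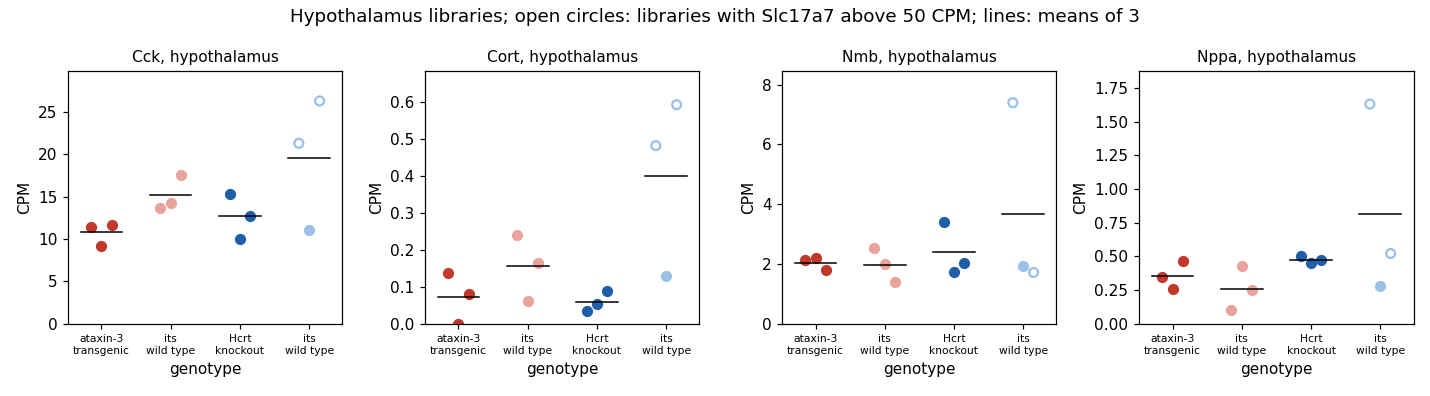
CPM of Cck, Cort, Nmb and Nppa in each hypothalamus library by genotype, with lines at means of 3 libraries; open circles are the 2 knockout-line wild types with Slc17a7 above 50 CPM. Cck and Cort were highest of all 12 libraries in these 2, and Nmb and Nppa in the first of them.

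In cortex, 13 of 17 log2 fold changes of the transgenic comparison lay above 0, and 7 of 17 of the knockout comparison, while 48.6% and 50.3% of all genes lay below 0. Calca was at 0.142, 0.294 and 0.318 CPM in transgenic cortex and at 0.521, 0.371 and 0.392 in wild types, without overlap (4.64% of all genes in that direction). Its log2 fold change of -0.77 (SE 0.36, unadjusted p = 0.051) had an edgeR adjusted p of 0.75, and these levels rest on few counts. Cck in transgenic cortex was at 305, 200 and 215 CPM against 228, 204 and 196 (log2 fold change 0.20), and replicate 1 was the highest of 12 for 8 of 16 genes, among them Cck and Cort (6.97 CPM against 3.41 and 4.25 in the other two). Without it the Cck change was -0.01. Reads without a unique alignment made up 19.237% of transgenic replicate 1 and 15.972% to 17.08% of the other cortex libraries. The part of that in these values was not tested. Pnoc (0.18) and Nppc (0.22) lay above 0 and Apln (-0.07) and Npff (-0.07) below. In knockout cortex, Nmb was at 1.82, 1.76 and 1.83 CPM against 2.01, 2.06 and 3.65 (log2 fold change -0.53, unadjusted p = 0.034). Apln was at 31, 30.6 and 27.4 against 31.7, 47.4 and 32 (-0.32, unadjusted p = 0.037), and for neither gene did the groups overlap (5.63% of all genes in that direction). Adm (-0.40, unadjusted p = 0.038), Nts (0.60), Grp (0.14) and Edn1 (0.11) followed, and the edgeR adjusted p was 1 for all 6.

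In brainstem, 19 of 23 log2 fold changes of the transgenic comparison and 17 of 23 of the knockout comparison lay below 0, and 16 genes lay below 0 in both, among them Gal, Nts, Tac2, Calca, Grp, Apln and Edn3. Over all 16493 genes, 49.9% lay below 0 in the transgenic, 47.9% in the knockout and 24.7% in both comparisons, and the median was 0 in each. The precursor medians were small, -0.10 and -0.13. All 3 model libraries lay below all 3 wild-type libraries for 7 genes in the transgenic comparison (6.17% of all genes) and for 5 in the knockout comparison (4.69%). Libraries differ as wholes, so genes are not independent of each other, and these counts carry no p. Ataxin-3-line wild types 1 and 2 of brainstem had 32.33% and 41.97% of reads assigned to no gene. In the other brainstem libraries this share was 26.97% to 28.65%. Wild type 2 also had the lowest gene counts of all libraries, 21915540. The transgenic comparison was refitted without each of these libraries in turn, and no precursor gene passed the threshold. Over all alternatives, 17 to 22 precursor genes lay below 0. No fit left out both libraries, and the part of the unassigned reads was not tested. Calca was at 13.3, 11.9 and 12.6 CPM in transgenic brainstem and at 15.7, 16.3 and 12.6 in its wild types (log2 fold change -0.23, SE 0.09, unadjusted p = 0.025, edgeR adjusted p = 0.56). In the knockout it was at 12.8, 12.7 and 14.6 CPM against 16.5, 15.4 and 17.4 (-0.29, SE 0.09, unadjusted p = 0.0057, edgeR adjusted p = 1). The knockout groups did not overlap, and the transgenic groups overlapped through the wild-type value of 12.6.

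Tac2 in brainstem was at 1.66, 1.56 and 1.67 CPM in the transgenic libraries and 3.13, 4.21 and 2.47 in their wild types. The groups did not overlap, with a log2 fold change of -0.97 (SE 0.44, unadjusted p = 0.055, edgeR adjusted p = 0.60). In the knockout line it was at 2.23, 2.08 and 1.45 CPM against 1.44, 5.18 and 1.91 in wild types, which overlap. Grp (-0.33, unadjusted p = 0.06) was at 1.86, 1.73 and 1.7 CPM in the transgenic libraries and 2.24, 2.21 and 2.19 in wild types. Edn3 had the smallest p of the knockout comparison, at 6.93, 6.41 and 7.63 CPM against 8.45, 9.16 and 8.61 (log2 fold change -0.32, SE 0.09, unadjusted p = 0.0022, edgeR adjusted p = 0.96). The knockout-line wild types were also above those of the ataxin-3 line for Edn3, which were at 7.54, 7.23 and 7.44 CPM. Apln (-0.14, unadjusted p = 0.013) was at 61.2, 59.2 and 61.9 CPM in the knockout and 65.2, 65.5 and 70.1 in wild types. Npff (0.46), Rln3 (0.74) and Calcb (0.10) lay above 0 in the knockout comparison, and Npb (0.15), Edn1 (0.03) and Nppc (0.02) in the transgenic comparison. Rln3 ranged from 0.141 to 4.37 CPM over the 12 libraries and each knockout-line group spread widely (1.43, 4.37 and 2.28 in the knockout, 0.141, 2.95 and 1.72 in wild types). Cerebellar markers summed to 61.9, 354 and 35.1 CPM in the transgenic and 37.3, 44.3 and 425 in their wild types, and to 429, 313 and 80.5 in the knockout and 279, 299 and 63.5 in its wild types, and their part in these values was not tested.

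**Figure D5:**
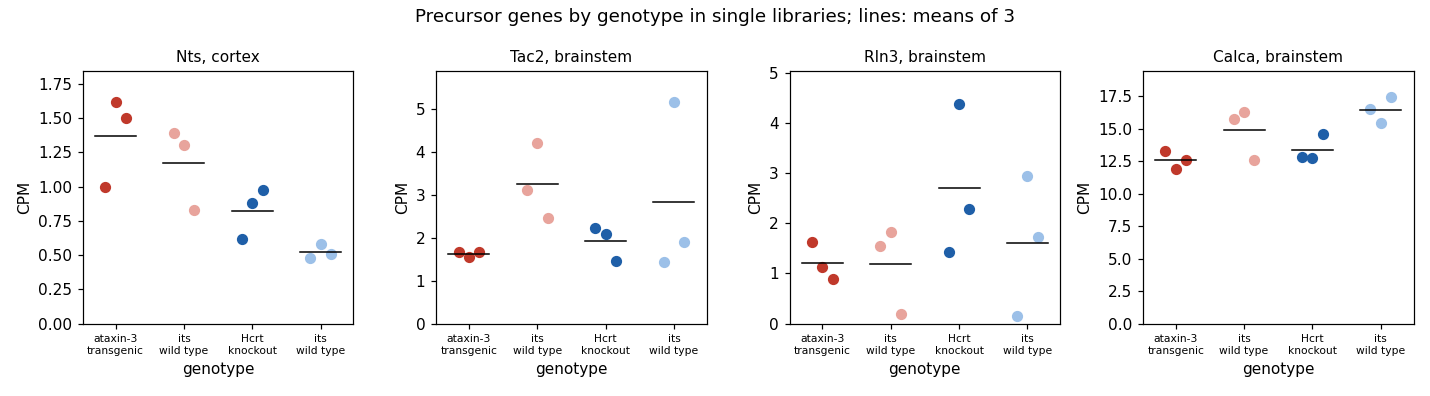
CPM in single libraries by genotype for Nts in cortex and for Tac2, Rln3 and Calca in brainstem, with lines at means of 3 libraries. Nts was below 0.6 CPM only in the 3 knockout-line wild types, transgenic Tac2 values lie together at 1.56 to 1.67 CPM, and Rln3 spreads within groups.

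The wild types of the 2 lines were compared with each other to see how far the lines differ without a model, and with all libraries no gene of any kind passed the threshold in any tissue with edgeR (0% in each). The difference of largest support among the precursor genes was Nts in cortex, at 1.39, 1.3 and 0.83 CPM in wild types of the ataxin-3 line and 0.478, 0.584 and 0.511 in those of the knockout line (log2 fold change 1.14, SE 0.27, unadjusted p = 0.00081, edgeR adjusted p = 0.51). The transgenic libraries of the same line were at 0.996, 1.62 and 1.5 CPM and the knockout libraries at 0.614, 0.88 and 0.971. Pnoc (0.24) and Grp (0.20) were also above 0 in cortex, and Nmb (-0.39), Apln (-0.15) and Adcyap1 (-0.04) below. In hypothalamus Nppa (-1.62, unadjusted p = 0.021), Adm (-0.70) and Nmb (-0.90) were lower and Apln (0.25, unadjusted p = 0.031), Tac2 (0.20) and Nmu (0.24) higher in the ataxin-3 line. In brainstem Edn3 (-0.25, unadjusted p = 0.014, edgeR adjusted p = 0.23), Nmb (-0.34) and Calca (-0.16) were lower and Adm (0.14), Grp (0.14) and Nmu (0.20) higher. At an unadjusted p under 0.05 stood 2 of 23, 1 of 17 and 1 of 23 genes in hypothalamus, cortex and brainstem, against 2.29%, 3.26% and 14.9% of all genes. The brainstem comparison includes ataxin-3-line wild types 1 and 2, with the most reads assigned to no gene, and the part of that was not tested.

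The transgenic effect minus the knockout effect passed the threshold for no precursor gene in any tissue (0%, 0.0243% and 0% of all genes in hypothalamus, cortex and brainstem). Nmb in cortex (0.84, SE 0.32, unadjusted p = 0.018, edgeR adjusted p = 0.93) and Edn3 in brainstem (0.27, SE 0.13, unadjusted p = 0.046, edgeR adjusted p = 0.94) were the only precursor genes with an unadjusted p under 0.05 in this comparison. Whether a model's effect differed between tissues was tested in 1 fit of all 36 libraries, and none of 29 precursor genes passed in any of 6 comparisons (0% to 0.00564% of all genes). The knockout effect on Cort in hypothalamus minus that in cortex was -2.74 (SE 0.70, unadjusted p = 0.00052, edgeR adjusted p = 0.45). It passed the threshold in 1 of the alternatives, without knockout-line wild-type replicate 2 of hypothalamus (-3.15, edgeR adjusted p = 0.017), which leaves the 2 wild types of high Slc17a7 as the group. The transgenic effect on Tac2 in cortex minus that in brainstem was 1.05 (SE 0.41, unadjusted p = 0.015, edgeR adjusted p = 1).

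Receptors and processing genes gave no call either in the comparisons of the models with edgeR (0 of 44 and 0 of 14 in hypothalamus, where at an unadjusted p under 0.05 stood 5 and 4 in the transgenic comparison, and 4.16% of all genes). The convertase Pcsk1 (-0.53, SE 0.15, unadjusted p = 0.0037) and Scg2 (-0.38, unadjusted p = 0.010) had the smallest p of the processing genes in transgenic hypothalamus, where 12 of 14 lay below 0 and 47.3% of all genes did. Pituitary markers summed to 26100 and 13900 CPM in wild-type replicates 1 and 3 of this comparison, and to 15.5 to 64.5 in the transgenic libraries. Their part in the 12 of 14 was not tested. Ramp3 (-0.95) and Nmur1 (-1.27) had the smallest p of the receptors in transgenic hypothalamus. In knockout hypothalamus these were Sstr3 (-0.46) and Tacr3 (0.28), and in knockout brainstem Prokr2 (-0.71), a prokineticin receptor, and Calcrl (-0.27), which forms the CGRP receptor with Ramp1. In transgenic brainstem Chga (0.24), Vipr2 (-0.33) and Nmbr (-0.54) stood first, and no edgeR adjusted p was under 0.54. Between the wild types, Tacr3 was higher in the ataxin-3 line in hypothalamus (0.39, unadjusted p = 0.0019) and in brainstem (0.36, unadjusted p = 0.0027), with edgeR adjusted p of 1 and 0.18. In brainstem Ramp1 (-0.25, edgeR adjusted p = 0.18) was past the threshold with DESeq2 (adjusted p = 0.049) and without ataxin-3-line wild type 3 (-0.32, edgeR adjusted p = 0.016), and without that library Scg5, a convertase chaperone, was as well (-0.26, edgeR adjusted p = 0.008, from -0.17).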

How the data were processed

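RNA-seq was run on 36 libraries of hypothalamus, cortex and brainstem from C57BL/6 mice, with total RNA and a stranded mRNA kit per the labels. The authors deposited raw HTSeq counts per Ensembl gene. Per the submitters' processing notes the tools were cutadapt 1.2.1, TopHat2 2.0.9 and HTSeq 0.5.4p3, with GRCm38; its strand and overlap settings were not stated there or in the labels. Reads assigned to no gene made up 24.74% to 41.97% of each file and were left out. Symbols came from GENCODE M21.

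Counts were tested with edgeR 4.0.16 (R 4.3.3): TMM factors, filterByExpr, robust quasi-likelihood, Benjamini-Hochberg adjustment over all genes and a threshold of 0.05. Each tissue's 12 libraries were fitted together for genotypes, the 18 wild-type libraries for tissues, and all 36 for differences between tissues in a model's effect. SE is the log2 fold change over the root of F. The fits were also run on simulated counts, drawn gene by gene without whole-library differences, so that run does not bear on such differences. Alternatives used DESeq2 1.42.0, voom with quality weights (limma 3.58.1), other factors and filters, a replicate block, other sets of libraries and each library left out.

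The labels do not say whether replicates were separate animals, so p-values measure the spread between these libraries; same-group pairs differed by more than sampling noise (chi-square per degree of freedom 2.37 to 320). Replicate numbers appear in the titles. Same-numbered deviations correlated at 0.19 to 0.64 in knockout and wild-type brainstem, over 11902 genes, so the numbers may pair those samples. The labels do not state such a pairing. Cerebellar markers were also lowest in replicate 3 of both groups (429, 313 and 80.5 CPM in the knockout, 279, 299 and 63.5 in its wild types). Their part in this correlation was not tested. The p-values given for knockout against wild-type brainstem come from the fit without pairing. In the other 5 comparisons of a model with its wild type not every pair was over 0.1. Across tissues, same-numbered hypothalamus and brainstem libraries of the ataxin-3-line wild types correlated at 0.13 to 0.23 (3 of 3 pairs over 0.1); the tissue fits with the number as a block are given as an alternative. The genes named are, per comparison of genotypes, those past the threshold or else the 3 of lowest p above 0 and the 3 of lowest p below 0. Between tissues all are given by call. Receptor (45 of 46 listed had a row), processing (14) and marker lists were used as counts and sums. A cortical marker of these lists is not reported here. Gal, Nts, Adcyap1 and others described beyond that rule were chosen after their values were seen. The genes and lists were chosen with earlier results of these data known.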

Additional observations from a re-analysis of the deposited data

How the results depend on the processing

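No precursor gene passed the threshold between a model and its wild type, between the wild types or in the difference of the models' effects under any alternative tried, and the only such call was the difference of the knockout effect on Cort between hypothalamus and cortex, 1 gene called (from 0) without knockout-line wild type 2 of hypothalamus; leaving out each library gave 0 to 1. Counts below 0 in brainstem ran from 17 to 22 (transgenic) and 13 to 21 (knockout). Counts called between tissues stayed at 21 to 26 for hypothalamus and cortex, 22 to 28 for hypothalamus and brainstem, and 20 to 26 for cortex and brainstem. The genes highest in hypothalamus numbered 8 to 11, in cortex 3 to 4 and in brainstem 8 to 10. With the replicate number as a block over both lines, 16 of 23 genes lay below 0 in knockout brainstem and none was called. Same-numbered brainstem wild types of the 2 lines correlated at -0.44 to -0.02, so this is not a pairing of the knockout line alone. That pairing was not fitted on its own. Between tissues the block was the number within each genotype. It called 26, 27 and 24 genes and changed 3 calls: Rln3 for hypothalamus over cortex (3.98, edgeR adjusted p = 0.011), and Nmb (0.87, edgeR adjusted p = 0.059) and Nppa (2.47, edgeR adjusted p = 0.028) for cortex over brainstem.

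Some log2 fold changes, none of them past the threshold, changed sign, and the cause was not tested. Without the libraries of high Slc17a7, the knockout effects in hypothalamus were 0.20 for Cck, 0.74 for Nppa and 0.31 for Nmb, and the Nmb difference between wild types was 0.05. Without the libraries of pituitary or nasal signal, the transgenic effect on Apln was 0.01 and the Nmu difference between wild types -0.41. Without both kinds, hypothalamus over cortex was -0.23 for Nmb and hypothalamus over brainstem -0.22 for Cck. With ataxin-3-line wild types only, hypothalamus over cortex was 0.15 for Gcg and -0.05 for Nmb, and cortex over brainstem 0.08 for Edn3. With voom, Nmb was -0.08 for hypothalamus over cortex, and Npvf -0.37 for cortex over brainstem (-0.25 with DESeq2). Leaving out each library gave, in knockout hypothalamus, -1.18 to 0.24 for Nppa and -0.99 to 0.40 for Nmb, and -1.25 to 0.12 for Nmb between wild types. In cortex it gave -0.01 to 0.32 for Cck, -0.14 to 0.03 for Apln and -0.24 to 0.04 for Npff (transgenic), and -0.24 to 0.07 for Apln between wild types. In brainstem it gave -0.08 to 0.49 for Npb, -0.09 to 0.13 for Edn1 and -0.05 to 0.14 for Nppc (transgenic), and 0 to 0.50 for Nmu between wild types. Between tissues it gave -1.55 to 0.29 for Gcg and -0.27 to 0.41 for Nmb (hypothalamus over cortex), and -0.14 to 0.03 for Edn3 and -0.59 to 0.65 for Npvf (cortex over brainstem). Depth limits the genes under 0.2 CPM, which rest on few counts per library.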
